A study of Mus musculus with 6 samples.

Results

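The 39 genes described here encode proteins that move newly made secretory proteins into the endoplasmic reticulum (ER) and between the ER and the Golgi. They comprise 3 subunits of the Sec61 translocon, 4 subunits of the TRAP complex, 13 genes of the COPII coat and its exit sites, 7 COPI coat genes, 10 genes for cargo receptors, retrieval receptors and a SNARE, and 2 transcription factors. Members were taken by gene identity from a list of mouse symbols, through the gene identifiers of the authors' deposited table, where all 39 were found among 19267 genes. RNA was measured on 6 one-colour Agilent arrays, 3 of wound cells and 3 of skin cells. Wound cells were sorted for high GFP from wounds 7 days after injury (labelled wound SMA+++), and skin cells for low GFP from dermis (labelled skin SMA+). Cells of both groups came from mice that carry the SMA-GFP transgene, in which the smooth muscle actin promoter drives GFP, and both were gated as negative for the leukocyte marker CD45 and the endothelial marker CD31. The groups therefore differ in tissue, injury and reporter level at once, and these cannot be told apart. Array design 026655 held replicates 1 and 2 of the wound and skin cells, and design 028005 held replicate 3 of both, a number that is a name only. The sources used here do not say whether arrays came from separate animals or from pools, so p-values measure the spread between these arrays, which may be technical.

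Secretory and membrane proteins enter the ER through the Sec61 channel, which works with the TRAP complex. They leave it in vesicles coated by COPII, while COPI-coated vesicles return escaped ER residents and machinery from the Golgi. In fibroblasts and myofibroblasts this route carries procollagen and other matrix proteins, and procollagen is a cargo too long for an ordinary COPII vesicle. Creb3l1 and Creb3l2 are membrane-bound transcription factors that are released by cleavage in the Golgi and are known to activate transport genes in cells that secrete matrix.

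Across all genes, 5687 of 16684 tested (34.1%) passed the threshold in either direction, with 18.5% higher and 15.6% lower in wound cells. Acta2, the smooth muscle actin gene, averaged 6.98 ± 0.82 in wound cells and 2.28 ± 0.85 in skin cells (SD, n = 3 each), in log2 units over the array's 75th percentile, and its adjusted p by limma was 5.19e-05. The labels call the cells fibroblast-like, and all 6 fibroblast markers listed were well above background on all 6 arrays. Pdgfra was lower in wound cells by a log2 difference of -1.30, and the other 5 did not pass the threshold. Among these, the collagen genes Col1a1 and Col1a2 had differences of 0.09 and 0.02 (adjusted p 0.675 and 0.925). Pecam1, which encodes CD31, was also well above background on all 6 arrays, and Ptprc, which encodes CD45, on 1 wound array and all 3 skin arrays. All 7 keratinocyte markers fell in wound cells, with a summed signal of 0.57 to 2.1 times the 75th percentile in wound cells and 12.2 to 33.5 in skin cells, and Krt1 and Cdh1 were above background on no wound array. Of 9 mural cell markers 7 rose, with sums of 76.9 to 202 in wound cells and 22.1 to 39.5 in skin cells. All 4 myofibroblast markers rose, with sums of 259 to 773 in wound cells and 30.8 to 92.3 in skin cells. Of the leukocyte markers 0 of 9 tested rose and 2 fell, with sums of 24.1 to 106 in wound cells and 24.5 to 125 in skin cells. Itgam, Csf1r, Cd68, Cd3e, Cd79a and Ly6g were well above background on all 6 arrays, and the other leukocyte markers were not. Of the endothelial markers 2 of 6 tested rose and 0 fell, and of the Schwann cell markers 0 of 4 rose and 2 fell. The part of these marker differences in the results below was not tested, and in bulk RNA fewer cells of a type and less RNA per cell cannot be told apart.

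Of the 39 transport genes, 19 rose in wound cells, 0 fell and 20 did not pass the threshold, so that 48.7% rose, against 18.5% of all genes tested. The test was limma's moderated test with array design as a term and Benjamini-Hochberg adjustment over all 16684 genes. At an unadjusted p under 0.05, 25 members were higher and 0 lower. The share of all genes at that threshold was not counted, so these counts cannot be compared with all genes. The median log2 difference of the 39 members was 0.54, against 0.04 for all genes, and the members ranged from -0.15 to 1.18. The differences were moderate in size. Only Sec61b and Kdelr2 rose by at least 2-fold, which is 5.13% of the members against 20.2% of all genes that were called at that size in either direction. In each of the 3 wound and skin array pairs the members' median was above 0, at 0.63, 0.53 and 0.57. In 32 of 39 members (82.1%) the wound array read higher in all 3 pairs, and 0 members read lower in all 3, against 35.5% and 29.3% of all genes. All 39 members passed the filter on dim probes, and all 60 of their probes were well above background on all 6 arrays.

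The count of 19 members that rose depended on single arrays and on the array design term. Without wound replicates 1, 2 and 3 it was 11 (28.2%), 19 (48.7%) and 9 (23.1%), against 13.4%, 15.5% and 14.1% of all genes higher in the same fits. Without skin replicates 1, 2 and 3 it was 8 (20.5%), 11 (28.2%) and 9 (23.1%), against 12.1%, 13.4% and 14.1% of all genes. With no term for the array design, limma called 0 members, against 5.06% of all genes higher, and 0 members had an unadjusted p under 0.05. That fit gave every gene the same standard error, 0.62. The highest member difference was 1.18, so no member was large enough to pass there, however closely its pairs matched. Leaving out either array of design 028005 gives the same fit as design 026655 alone, so the alternatives with a test held 15 distinct fits. Sec61b, Sec61a1, Kdelr2, Creb3l2, Surf4 and Lman1 kept their calls in all of these except the fit with no design term. Members that did not pass the threshold are not shown to be unchanged, since the median standard error of the members was 0.17.

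**Figure D1:**
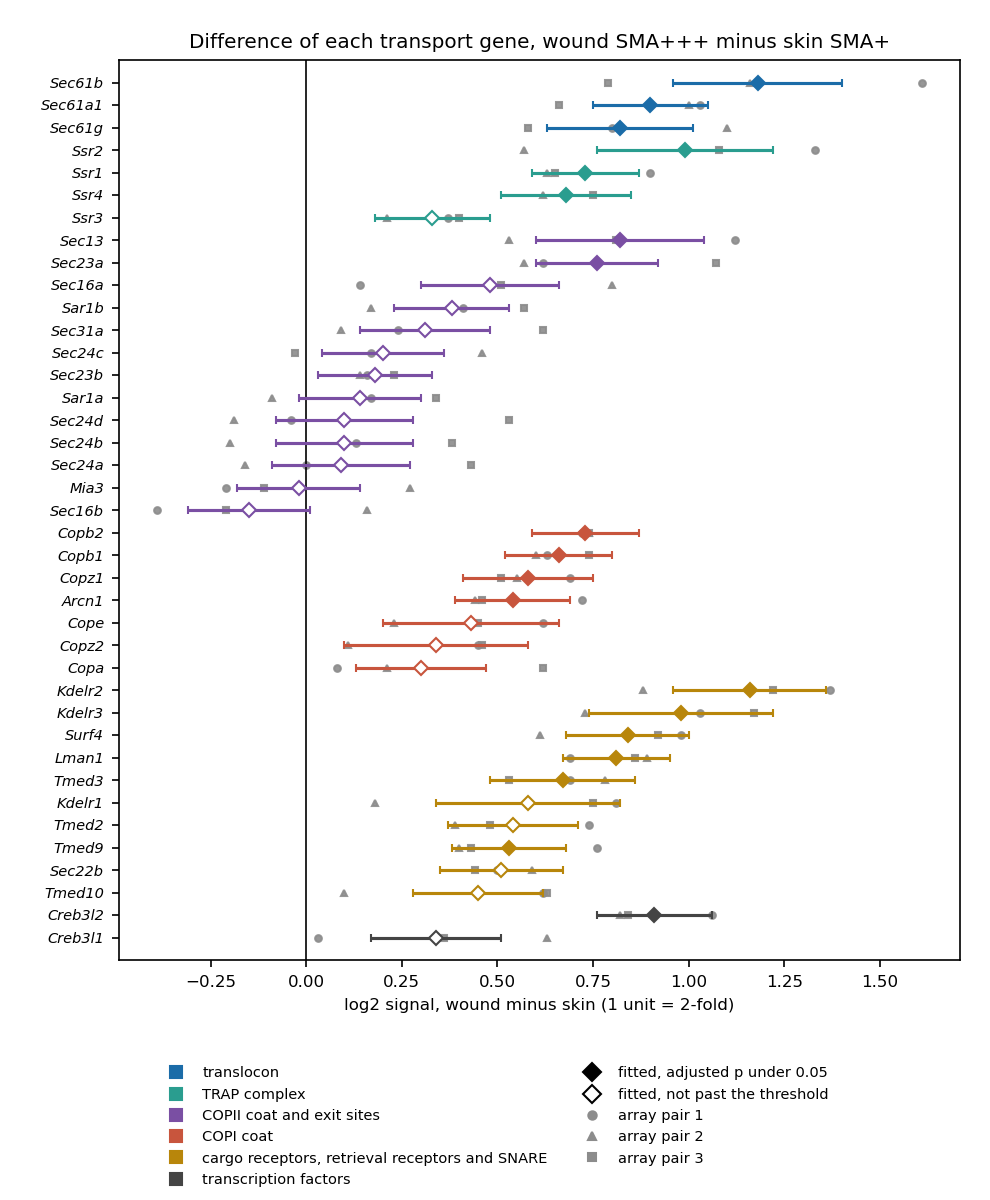
Difference between wound and skin cells for each of the 39 genes, in log2 units on the x axis, with genes on the y axis grouped by role. Diamonds are fitted differences with their standard error, filled where the adjusted p was under 0.05, and grey points are the 3 array pairs. The 3 translocon genes lie between 0.82 and 1.18, while 11 of the 13 COPII genes have open diamonds.

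The share of members that rose varied with their role. All 3 translocon genes rose, as did 3 of 4 TRAP genes, 4 of 7 COPI genes and 6 of 10 genes of the receptor and SNARE group. Only 2 of 13 COPII and exit site genes rose, and 1 of 2 transcription factors. The median log2 difference was 0.90 for the translocon, 0.70 for TRAP, 0.63 for receptors and the SNARE, 0.54 for COPI and 0.18 for COPII. Differences between these groups of genes were not tested.

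**Figure D2:**
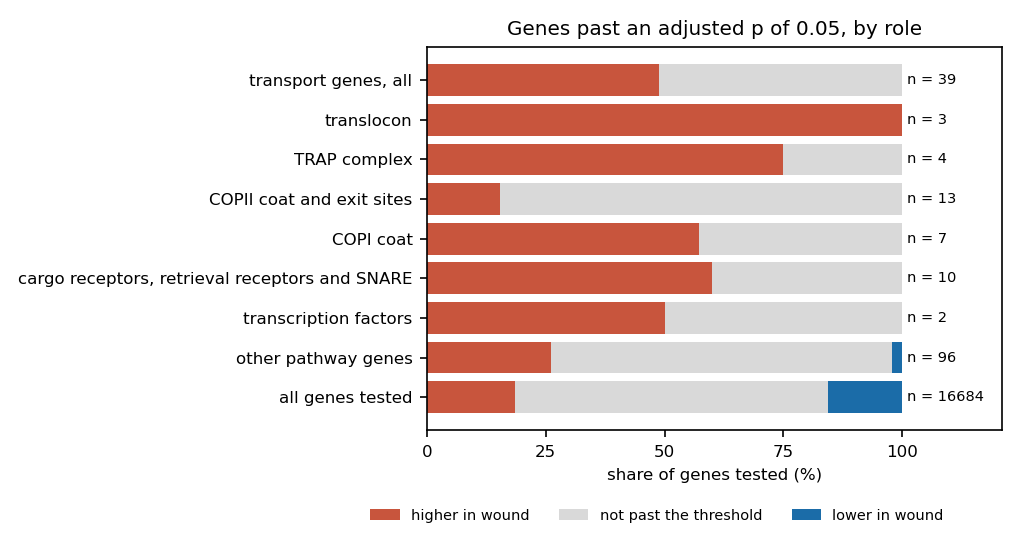
Share of the genes tested, in percent on the x axis, that were higher in wound cells, not past the threshold, or lower in wound cells, for each role, for other genes of the same pathway and for all genes. Higher shares were 48.7% for the 39 transport genes, 15.4% for COPII genes and 18.5% for all genes.

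Promoter sequences were read for the 32 members with a RefSeq window (GRCm38.p6, 300 bases from 250 before the transcription start to 50 after it). Stress-responsive factors of the ER, among them Atf6, Xbp1 and the Creb3l factors, are known to bind sequences with an ACGTG core, of which TGACGTGG is a longer form. A member was counted if any of its windows held the motif, while the shares of all genes count single windows. On either strand ACGTG was present in 22 of the 32 members (68.8%). It was present in 19.6% of 32851 windows of all genes and 20.9% of 21263 windows of protein-coding genes. TGACGTGG, which contains ACGTG and overlaps CCACG on the other strand, was present in 6 of 32 (18.8%), against 0.676% of all windows and 0.705% of protein-coding ones. CCACG was present in 20 of 32 (62.5%), against 32.8% of all windows, and CCAAT in 13 of 32 (40.6%), against 37.4%. In the full ER stress response element the last 2 motifs stand a fixed distance apart. It was found in 0 of the 32 members and in 0.119% of all windows. The median GC content was 57.0% for the members' 35 windows, 52.7% for all windows and 56.3% for protein-coding ones. Among members with a window, ACGTG was found in 9 of the 14 that rose and in 13 of the 18 that did not pass the threshold. TGACGTGG was found in 4 of the 14 and in 2 of the 18. A match describes letters in these windows and shows no binding.

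The 6 stretches with TGACGTGG are shown because they are the longest motif matches found. Each reads 5′ to 3′ on the strand of its gene, and capitals mark TGACGTGG or its reverse complement.
Kdelr3: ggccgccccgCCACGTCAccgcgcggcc
Sec23a: tcctccccttTGACGTGGcagaggcggc
Copb2: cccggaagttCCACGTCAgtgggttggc
Copb1: ccgcccccttCCACGTCAgccaaggact
Sec24d: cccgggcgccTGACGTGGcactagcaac
Sec16b: tctgtgtggcTGACGTGGcacggcagtt
They lie at chr15:79516368-79516395 (plus strand), chr12:59011994-59012021 (minus), chr9:98563714-98563741 (plus), chr7:114254691-114254718 (minus), chr3:123267460-123267487 (plus) and chr1:157506742-157506769 (plus), in the order printed. The motif began 30, 7, 28, 26 and 44 bases before the transcription start of Kdelr3, Copb2, Copb1, Sec24d and Sec16b. In Sec23a it began at base 7 of the transcribed part. Sec16b also has a window at another transcription start, which does not hold TGACGTGG. The first 4 genes rose in wound cells, and Sec24d and Sec16b did not pass the threshold.

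The 250 bases before the start of Kdelr3 and of Sec61b are set side by side because both genes rose and their windows differ in motif content. Capitals mark the 3 short motifs above (the ACGTG core, the CCACG motif and the CCAAT motif) wherever they occur on either strand.
Kdelr3: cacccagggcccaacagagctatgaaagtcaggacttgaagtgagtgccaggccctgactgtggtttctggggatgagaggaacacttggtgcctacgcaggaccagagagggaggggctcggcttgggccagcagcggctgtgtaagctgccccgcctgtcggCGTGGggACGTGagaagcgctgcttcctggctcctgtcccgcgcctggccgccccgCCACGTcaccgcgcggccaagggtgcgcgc
Sec61b: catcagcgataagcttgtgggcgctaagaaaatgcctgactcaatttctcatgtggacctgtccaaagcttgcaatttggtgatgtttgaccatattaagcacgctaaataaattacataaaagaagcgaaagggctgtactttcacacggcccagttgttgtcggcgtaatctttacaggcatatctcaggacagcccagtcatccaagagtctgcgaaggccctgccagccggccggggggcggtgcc
The Kdelr3 stretch is chr15:79516158-79516407 (plus strand) and holds matches to the ACGTG core and to the CCACG motif. The Sec61b stretch is chr4:47474411-47474660 (plus strand) and holds none of the 3 motifs, although Sec61b had the highest difference of the 39 genes.

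All 3 translocon genes among the 39 rose. Sec61a2, Sec62 and Sec63, which are outside the 39, had differences of 0.08, -0.06 and 0.52. None of them passed the threshold (adjusted p 0.734, 0.793 and 0.0601). Sec61b, a small tail-anchored subunit of the channel, read 5.89, 5.34 and 7.16 on wound arrays 1, 2 and 3, against 4.29, 4.18 and 6.37 on skin arrays 1, 2 and 3, in log2 units over the 75th percentile, the scale of all levels below. Wound arrays were higher in each pair, and on design 026655 the groups did not overlap. The array of design 028005 read higher in both groups, as it did for all 39 members, so levels are compared within a design. The log2 difference of Sec61b was 1.18 ± 0.22 (SE, n = 3 each), a 2.27-fold increase with an adjusted p of 0.00814. Sec61a1, which forms the channel itself, read 5.22, 5.15 and 6.23 on wound arrays, against 4.19, 4.14 and 5.57 on skin arrays. Its difference of 0.90 ± 0.15 had an adjusted p of 0.0057, and both 026655 pairs differed by about the same amount, 1.03 and 1.00. Sec61g, the other small subunit, read 5.81, 5.66 and 6.88 on wound arrays, against 5.01, 4.56 and 6.30 on skin arrays. Its difference was 0.82 ± 0.19 with an adjusted p of 0.0176, and that call was lost without wound replicate 1.

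TRAP, the translocon-associated protein complex, sits beside Sec61 and assists the entry and glycosylation of a subset of proteins. Ssr2, its beta subunit, read 3.81, 3.00 and 4.63 on wound arrays, against 2.48, 2.42 and 3.54 on skin arrays. The wound arrays were higher in each pair, although wound replicate 2 stood only 0.57 above its skin partner, and the difference was 0.99 ± 0.23 with an adjusted p of 0.0196. Ssr1, the alpha subunit, differed by 0.73 ± 0.14 (adjusted p 0.0108) and Ssr4, the delta subunit, by 0.68 ± 0.17 (adjusted p 0.0263). Ssr3, the gamma subunit, had a difference of 0.33 ± 0.15 and did not pass the threshold (adjusted p 0.139), although it was 0.55 and passed when all probes were averaged. The increase of Ssr1 rests on 1 of its 3 probes. The brightest probe gave 0.73, and the others 0.03 and -0.89. Ssr4 lost its call without any 1 of wound replicates 1 and 3 and skin replicates 1, 2 and 3, Ssr2 without wound replicate 3 or any 1 skin array, and Ssr1 without skin replicate 1.

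Of the 13 COPII and exit site genes, 2 rose (15.4%), a share close to the 18.5% of all genes tested. Sec13, a subunit of the outer cage and also a nuclear pore protein, read 2.62, 1.87 and 3.36 on wound arrays, against 1.50, 1.34 and 2.55 on skin arrays. All 3 pairs were higher in wound cells, and the difference of 0.82 ± 0.22 had an adjusted p of 0.0331. Its cage partner Sec31a differed by 0.31 ± 0.17 and did not pass (adjusted p 0.201). Sec23a, an inner coat subunit whose loss impairs collagen secretion in human skeletal disease, read 0.24, 0.26 and 1.66 on wound arrays, against -0.39, -0.31 and 0.58 on skin arrays. Wound arrays were again higher in each pair, with the widest gap on design 028005, and the difference was 0.76 ± 0.16 (adjusted p 0.0147). Sec13 lost its call without any 1 array other than wound replicate 2, and Sec23a without wound replicate 3, skin replicate 1 or skin replicate 3.

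The other 11 genes of the COPII group gave no call. Sec24d, a cargo-binding subunit needed for collagen export in zebrafish, read 2.23, 2.17 and 3.61 on wound arrays, against 2.27, 2.35 and 3.08 on skin arrays. It was lower in wound cells in both 026655 pairs and higher on design 028005, and its difference of 0.10 had a 95% interval of -0.34 to 0.55. Its relatives Sec24a, Sec24b and Sec24c had differences of 0.09, 0.10 and 0.20. Mia3, which binds procollagen at exit sites and enlarges the carrier for it, read 3.60, 3.83 and 4.45 on wound arrays, against 3.81, 3.56 and 4.56 on skin arrays. The groups overlapped on design 026655, and the difference of -0.02 had an interval of -0.40 to 0.37 and an adjusted p of 0.946. Sar1b, a GTPase that starts coat assembly, read 1.09, 0.94 and 2.29 on wound arrays, against 0.68, 0.77 and 1.72 on skin arrays. It was higher in wound cells in each pair, but its difference of 0.38 ± 0.15 did not pass (adjusted p 0.0995). Sec16a and Sec16b, scaffolds of the exit sites, had differences of 0.48 and -0.15 (Sec16a passed with normexp background correction and was 0.05 when all probes were averaged), and Sec23b and Sar1a of 0.18 and 0.14. Set side by side, the differences were 0.76 for Sec23a and 0.18 for Sec23b, and 0.38 for Sar1b and 0.14 for Sar1a, and whether relatives differ from each other was not tested.

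Of the 7 COPI subunits among the members, 4 rose and all 7 had positive differences. Copg1 and Copg2, COPI subunits counted with the other pathway genes, were lower, with differences of -0.22 and -0.12. Neither passed the threshold (adjusted p 0.429 and 0.618). Copb2 and Copb1, the beta-prime and beta subunits, differed by 0.73 ± 0.14 (adjusted p 0.00969) and 0.66 ± 0.14 (adjusted p 0.0133). Their pairs were close together, at 0.72, 0.74 and 0.74 for Copb2 and 0.63, 0.60 and 0.74 for Copb1. Copz1, a zeta subunit, differed by 0.58 and Arcn1, the delta subunit, by 0.54, with adjusted p of 0.0377 and 0.0325. Cope, Copz2 and Copa, the epsilon, second zeta and alpha subunits, had differences of 0.43, 0.34 and 0.30 and did not pass the threshold. Copb2 lost its call without skin replicate 1, Copb1 without wound replicate 3, skin replicate 1 or skin replicate 3, Copz1 without any 1 array other than wound replicate 2, and Arcn1 without any 1 of the 6 arrays. The second probe of Arcn1 gave 0.19, and its difference was 0.36 when all probes were averaged and 0.30 in a fit of the authors' deposited table, neither past the threshold. Without wound replicate 1 or wound replicate 2, Cope was 0.22 or 0.64 and Copz2 was 0.14 or 0.57, and Copa was 0.15 without wound replicate 3 or skin replicate 3.

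The KDEL receptors bind escaped ER chaperones in the Golgi and return them in COPI vesicles. Kdelr2 read 3.19, 2.59 and 3.92 on wound arrays, against 1.82, 1.71 and 2.70 on skin arrays. Every wound array exceeded its skin partner by at least 0.88, and the difference of 1.16 ± 0.20 was a 2.23-fold increase (adjusted p 0.00583). Kdelr3 read 3.69, 2.97 and 4.78 on wound arrays, against 2.65, 2.24 and 3.61 on skin arrays. It was higher in wound cells in each pair, by 0.98 ± 0.24 (adjusted p 0.0237), and lost its call without wound replicate 1 or 3 or skin replicate 2 or 3. Kdelr1 read 2.01, 1.21 and 3.01 on wound arrays, against 1.19, 1.03 and 2.26 on skin arrays. Its pair 2 differed by only 0.18, against 0.81 and 0.75 in the other pairs, and the difference of 0.58 ± 0.24 did not pass (adjusted p 0.107). Without wound replicate 2, Kdelr1 differed by 0.84 and passed. Whether the 3 receptors differ from each other was not tested.

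Of the cargo receptors, Surf4, which exports soluble proteins from the ER, read 5.43, 5.08 and 6.57 on wound arrays, against 4.45, 4.47 and 5.65 on skin arrays. The wound arrays were higher in each pair, by 0.84 ± 0.16 (adjusted p 0.00928). Lman1, a lectin that carries clotting factors and other glycoproteins out of the ER, read 4.44, 4.57 and 5.59 on wound arrays, against 3.75, 3.67 and 4.74 on skin arrays. Its 3 pairs differed by 0.69, 0.89 and 0.86, and the difference was 0.81 ± 0.14 (adjusted p 0.00623). The Tmed proteins are transmembrane cargo adaptors of COPI and COPII vesicles. Of the Tmed genes among the members, Tmed3 and Tmed9 rose, by 0.67 and 0.53 (adjusted p 0.0389 and 0.0386). Tmed2 and Tmed10 had differences of 0.54 and 0.45 and did not pass (adjusted p 0.0555 and 0.0963), nor did Sec22b, a SNARE of ER and Golgi membranes, at 0.51 (adjusted p 0.0519). Tmed1, Tmed4, Tmed5 and Tmed7, counted with the other pathway genes, had differences of 0.51, -0.05, -0.37 and -0.59. None of these passed the threshold (adjusted p 0.124, 0.872, 0.164 and 0.111), and Tmed6 was not tested. Tmed3 and Tmed9 lost their calls when any 1 of the 6 arrays was left out, while Tmed2 and Tmed10 passed without wound replicate 2. Sec22b and Tmed2 passed with normexp background correction and with the filter on all 6 arrays, and Tmed10 was 0.15 when all probes were averaged.

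Of the 2 transcription factors, Creb3l2 rose and Creb3l1 did not pass the threshold. Creb3l2, which activates Sec23a in mouse cartilage, read 0.21, 0.22 and 1.27 on wound arrays, against -0.85, -0.60 and 0.43 on skin arrays. On design 026655 both wound arrays stood clear of both skin arrays, and the difference of 0.91 ± 0.15 was a 1.88-fold increase (adjusted p 0.00503). Creb3l1, which is needed for collagen production in mouse bone, read 2.89, 3.15 and 4.36 on wound arrays, against 2.86, 2.52 and 4.00 on skin arrays. Pair 1 differed by 0.03 and pair 2 by 0.63, and the difference of 0.34 ± 0.17 did not pass (adjusted p 0.171). The difference between the factors was not tested, and RNA levels do not report on their cleavage.

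**Figure D3:**
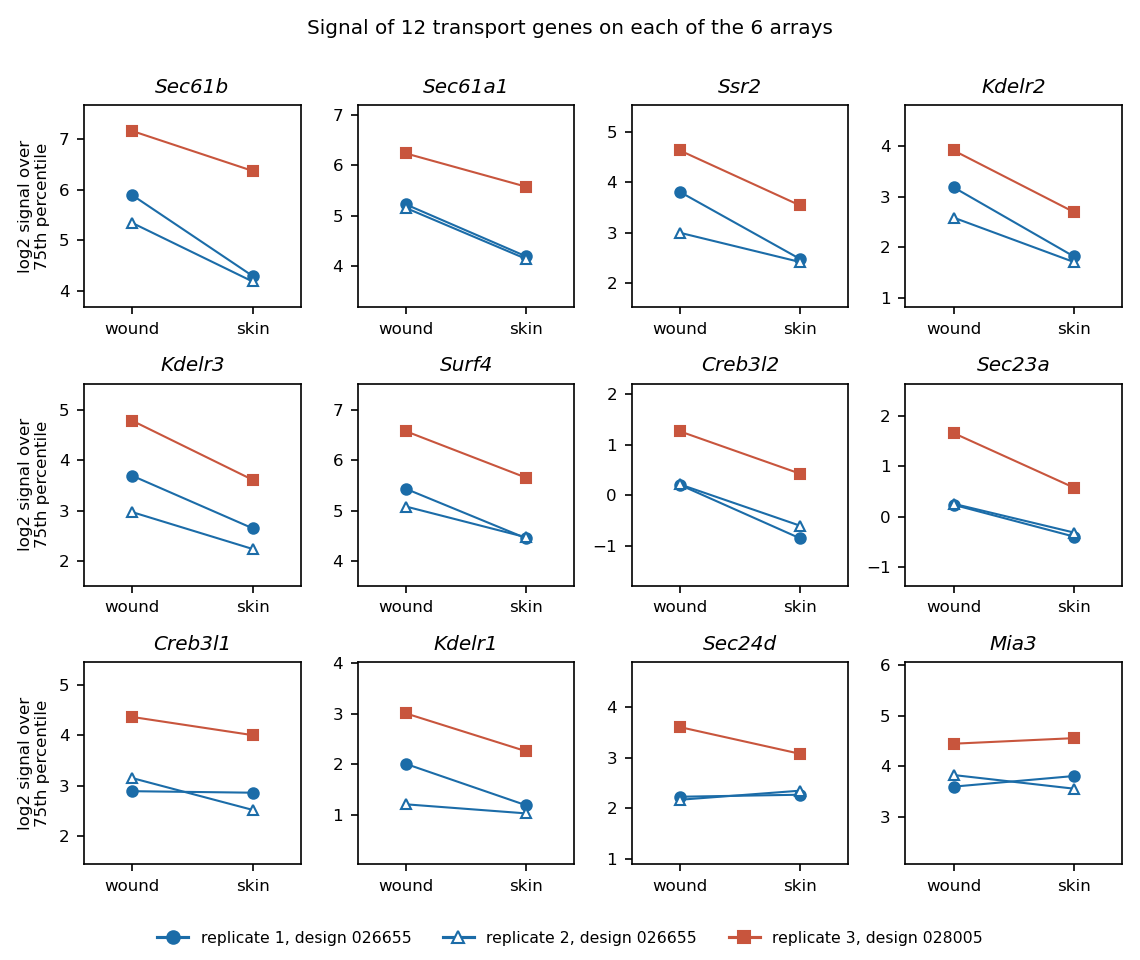
Level of 12 of the genes on each array, as log2 signal over the array's 75th percentile on the y axis, with wound cells left of skin cells in each panel. Lines join arrays of the same replicate number, in blue for design 026655 and in red for design 028005, and levels are not comparable between genes. For the first 8 genes the wound point lies above the skin point in all 3 replicates, while the lines of Sec24d and Mia3 run in both directions.

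For 19 of the 39 genes the arrays held more than 1 probe. The probes of 14 of these genes shared a sign, and those of 5 (Mia3, Sec16a, Sec24a, Ssr1 and Tmed10) did not. Sec61b gave 1.18 and 0.91 with its 2 probes. Lman1 gave 0.81 with the brightest probe and 1.74 with the other. Of the genes below the threshold, Sec16a gave 0.48 and -0.38, and Ssr3 gave 0.33 and 0.77. Of the 5 genes that rose and had several probes, all probes of 4 were higher in wound cells, the exception being Ssr1.

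**Figure D4:**
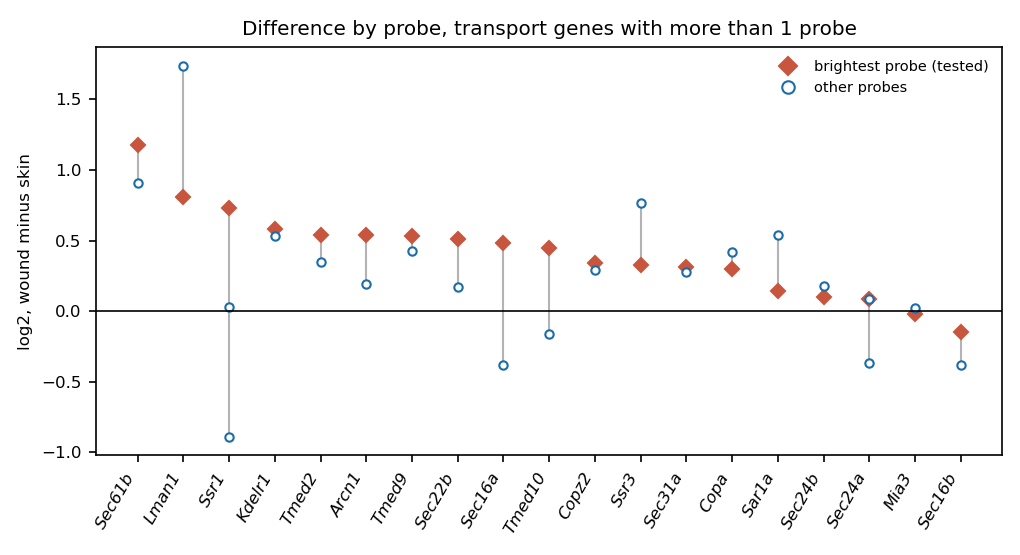
Log2 difference between wound and skin cells on the y axis for each probe of the 19 genes with more than 1 probe, ordered along the x axis by the brightest probe. Diamonds are the brightest probe, which was tested, and circles the other probes. The circles of Ssr1 at 0.03 and -0.89 lie below its diamond at 0.73, and the circle of Lman1 at 1.74 lies above its diamond at 0.81.

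Another 100 genes of the same route were listed, of which 99 had a probe on both designs and 96 were tested. In wound cells 25 rose (26%), 2 fell (2.08%) and 69 did not pass, against 18.5% higher and 15.6% lower of all genes. The median log2 difference of the 96 was 0.35. Among genes for targeting to the translocon, insertion and signal cleavage, 9 of 34 rose and 0 fell, and among other COPII genes and cargo adaptors 5 of 21 rose and 0 fell. Other COPI and Arf genes rose in 3 of 11 cases, and tethers, Rabs and SNAREs in 6 of 25 with 2 lower. Other factors of the Creb3 family and their proteases rose in 2 of 5 cases, with a median difference of -0.25. In that group Creb3l3 and the proteases Mbtps1 and Mbtps2 had differences of -0.48, -0.34 and -0.25. None of these passed the threshold (adjusted p 0.167, 0.123 and 0.501). The 6 genes that rose by the widest margins were Lman2l, a relative of Lman1, by 1.36 ± 0.15, Creb3l4 by 1.17 ± 0.18, the TRAPP tether subunit Trappc1 by 1.11 ± 0.29, Ostc, a subunit of the oligosaccharyltransferase, by 1.05 ± 0.16, Creb3 by 0.94 ± 0.16 and Trappc4 by 0.89 ± 0.18. The 2 that fell were Sec22c, a relative of Sec22b, by 0.80 ± 0.15, and Zw10, a subunit of a Golgi-to-ER tether, by 0.65 ± 0.19. Without wound replicates 1, 2 and 3, the number of the 96 that rose was 8, 23 and 12. In the same fits 13.4%, 15.5% and 14.1% of all genes were higher. Without skin replicates 1, 2 and 3 it was 7, 8 and 12 of the 96, against 12.1%, 13.4% and 14.1% of all genes. Among these fits, the share of the 96 that rose exceeded that of all genes only without wound replicate 2.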

How the data were processed

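Total RNA was amplified from about 50 ng and labelled with Cy3, per the series' design text and the labels. The authors extracted spot intensity values with Agilent Feature Extraction 10.7.3.1, per the file headers. The authors made the deposited gene table in GeneSpring 14.5 as a gene-level merge of the array types, per the series' design text, and its values were taken here as log2, a scale that no source states. Differences between its columns tracked scanner log2 differences (slopes 1, 1 and 0.984; Pearson's r 0.99998, 0.99996 and 0.97972, across 16545 genes). The 75th percentile of each column is 0, and genes are centred within design 028005.

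The scanner files carry no gene names. Probes were named through the gene identifiers of the authors' table, otherwise through RefSeq accessions in a name table (GRCm38.p6, names only). Control spots and outlier spots were left out, and no spot was saturated. Between 64.4% and 72.6% of spots were well above background per array, and the number of arrays limits the precision. Levels are the log2 processed signal less the 75th percentile of its array, for the brightest probe per gene and design. Of 23044 genes with probes on both designs, 16684 were tested, namely those detected well above background throughout 1 group or both. limma 3.58.1 (R 4.3.3) fitted wound against skin with the array design, which is also slide and scan, as a fixed term, giving 3 residual degrees of freedom and 6.25 after moderation. The threshold was a Benjamini-Hochberg adjusted p under 0.05. Standard errors and 95% intervals come from this fit, and means ± SD are over 3 arrays. The procedure was tested on simulated data.

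Members and lists were chosen with earlier results of these data known, so no p-value is given for a list. Levels on all arrays are given for the 10 called members with the largest increase and for Creb3l1, Creb3l2, Mia3, Sec23a, Sec24d, Sar1b and Kdelr1 to Kdelr3. Of the other pathway genes the 6 largest called increases and up to 4 decreases are named. The planned normexp alternative (offset 50) used the median signal in place of the mean signal, for which the scanner files have no column. Promoter sequences are RefSeq's for GRCm38.p6, and no window was used for Arcn1, Creb3l1, Kdelr2, Lman1, Sec61a1, Ssr2 and Tmed2.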

Additional observations from a re-analysis of the deposited data

How the results depend on the processing

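The count of members higher in wound cells was 19 and stayed between 14 and 22 with the replicate block, 2 other scalings, normexp correction, a filter on all 6 arrays, other probe rules and the authors' deposited table. In these fits 35.9% to 56.4% of the members were higher, against 15.1% to 18.9% of all genes. The count was 0 with no array design term, 9 (23.1%) on design 026655 alone and 11 (28.2%) with no filter on dim probes. All genes were higher in 5.06%, 14.1% and 10.3% of cases there. With single arrays left out the count was 8 to 19. At an adjusted p under 0.01 it was 7, and the share of all genes higher at 0.01 was not counted. The count of members lower was 0 in every alternative tried. For all genes the count in either direction was 5687. It was 1745 with no array design term, 3186 at 0.01 and 3748 to 5017 with single arrays left out, 3748 being without skin replicate 1. Of the 96 other pathway genes tested, 25 were higher, against 0 with no array design term, 4 at 0.01 and 7 to 23 with single arrays left out. The count was 12 of 96 on design 026655 alone, 10 of 99 with no filter and 14 of 96 in the authors' table. In the same fits 14.1%, 10.3% and 15.1% of all genes were higher, so the share of the other pathway genes did not exceed that of all genes there. The 2 lower were 0 with no array design term (0 also at an unadjusted p under 0.05), 4 with quantile normalization, 1 with no filter, 1 at 0.01 and 1 to 2 with single arrays left out. The members' median of 0.54 was 0.47 with the 75th percentile over detected probes, 0.38 with quantile normalization, 0.44 when all probes were averaged, 0.38 in the authors' table and 0.45 to 0.64 with single arrays left out. Ssr1, whose 3 probes differ in sign, reversed to -0.04 when all probes were averaged and to -0.10 in the authors' table, which are not independent alternatives. Lman1 was 1.27 when all probes were averaged. With no design term the standard error was 0.62 for every gene, against a median of 0.19 with it. No scaling moved the median of all genes by more than 0.08. Replicates 1 and 2 share only a number, and deviations of same-numbered arrays correlated at 0.153 over genes on design 026655. With the replicate block 20 members and 5590 genes of all were called. The block ended the call of Tmed9 and added Sec22b and Tmed2. Over 15 distinct fits, 6 called members lost the call in 1, Copb2 and Sec61g in 2, Copb1, Sec23a and Ssr1 (reversals included) in 3 or 4, and 8 in 5 or more. Of the 20 members not called, 14 passed in no alternative. Causes of the other changes were not tested. With 3 arrays a group, the smallest member difference that passed was 0.53.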
